A study of Mus musculus with 28 samples.

Results

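DNA transposon sequences were measured in an RNA immunoprecipitation (RIP) experiment on the mouse hippocampus, in which RNA bound to the protein ZBP1 was pulled down with an antibody and sequenced beside the unselected input. The members are the entries (rows) of the RIP count table that carry the repeat class DNA, have the form name, family and class, and hold at least 100 counts summed over the 4 libraries. Of 301 such entries 278 met the minimum, in 19 of 21 families, out of 25227 entries in the whole table (23995 genes and 1232 repeats). The 23 entries under the minimum held 1434 counts in all, and the families hAT-hAT19 and TcMar-Pogo had no member. The names MER63B, MER63C and MER63D each occur in 2 families and were kept as separate entries.

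The RIP groups are a ZBP1 immunoprecipitate (IP) from 5xFAD mice, the 5xFAD input without antibody, a ZBP1 IP from WT mice and the WT input, with 1 library each. All are labelled as hippocampus of mice 9 months of age. 5xFAD mice carry mutant human transgenes, APP among them, under the neuronal Thy1 promoter and serve as a model of amyloid deposition. Neither genotype carries a Zbp1 or Ripk1 mutation in the RIP labels, no IP from tissue lacking ZBP1 or with a control antibody was analysed here, and the labels do not say how many animals went into a library. With 1 library per group there is no replicate spread: no difference below has a replicate check or a p-value, and the 95% intervals cover counting error only.

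DNA transposons move by cutting themselves out of the genome with a transposase that recognises the inverted repeats at their ends. Those of the mouse genome are old, inactive copies, and many entries are short non-autonomous derivatives that never encoded a transposase. The hAT superfamily (Charlie, Tip100, Blackjack, Ac and Tag1 among its families) and the Tc1/mariner superfamily, written TcMar here (Tigger, Tc2, Mariner), account for most mammalian copies. ZBP1 is a sensor of left-handed Z-form double-stranded nucleic acid that recruits RIPK1 and RIPK3, and inverted copies of a repeat within a transcript can pair into double strands.

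The 4 libraries held 6808879 counts (5xFAD IP), 9444018 (5xFAD input), 5742746 (WT IP) and 8911548 (WT input), of which 91.0 to 92.4% lay on repeats. The genotype labels were checked on Thy1, part of the transgene construct, which had 751 and 1131 counts in the 5xFAD IP and input, against 17 and 13 in the WT IP and input. The tissue label was checked on defining markers of hippocampal cells. Snap25, a synaptic vesicle fusion gene, had 20, 26, 20 and 38 counts in the order 5xFAD IP, 5xFAD input, WT IP, WT input. Scaled to the gene counts of each library that is 32.0 to 52.0 CPM (counts scaled to a total of 1000000), where 6 WT hippocampal mRNA libraries of the same series had 1886 to 2115 CPM. The neuronal genes Syt1 (42.7 to 86.2 against 1438 to 1660 CPM) and Camk2a (67.9 to 160 against 3878 to 4902) were low in the same way. So were the astrocyte gene Gfap (29.1 to 44.3 against 288 to 559) and the oligodendrocyte gene Mbp (77.6 to 168 against 2153 to 3188). Ttn, the giant muscle gene, stood at 661 to 1132 counts in the RIP libraries, 1283 to 2019 CPM of gene counts against a hippocampal mean of 4.91. The T cell gene Cd3e stood at 6 to 32 counts, 11.6 to 43.7 CPM against 0.252. Prox1, a gene of dentate gyrus neurons, and C1qa, a microglial complement gene, lay nearer to the hippocampal libraries, at 55.9 to 106 CPM of gene counts against 113 to 173 CPM and at 13.6 to 28.9 against 30.2 to 50.3 CPM. Both have low hippocampal values, and C1qa was no higher than the T cell gene Cd8a (29.1 to 38.5, hippocampal mean 0.102). The nearness of C1qa is thus no sign of hippocampal cells. Prox1 lay above Cd8a, and whether its level comes from hippocampal cells was not tested. The 100 most abundant hippocampal genes held 0.766 to 0.950% of gene counts in the RIP libraries, against 14.2% in the hippocampal libraries. Over 22879 genes the rank correlation of a RIP library with the hippocampal mean was 0.529 to 0.616, and with the genomic span of the genes 0.648 to 0.682. The hippocampal mean itself had a rank correlation of 0.456 with genomic span. The most abundant hippocampal mRNAs thus did not stand out in the RIP libraries, in inputs and IPs alike, and the counts alone cannot tell reads of RNA from reads of DNA.

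Members took a slightly smaller share of the IP than of the input in both genotypes. They summed to 2.46% of counts in the 5xFAD IP against 2.76% in the 5xFAD input, and to 2.39% in the WT IP against 2.70% in the WT input. Expressed as log2 of the IP over input CPM, scaled from here on to the counts of the whole table, the sum was -0.17 in 5xFAD (0.891-fold) and -0.17 in WT (0.888-fold). The 95% counting interval ran from -0.18 to -0.16 in each genotype, and the 5xFAD minus WT difference was 0.01 (-0.01 to 0.02). DNA transposons as a class were thus not higher in the ZBP1 IP than in the input on this scale.

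The sign of these values depends on the scaling. With TMM factors the sum was 0.14 in 5xFAD and -0.01 in WT, with DESeq2 size factors 0.18 and -0.01, and with the gene entries alone as the library 0.01 in 5xFAD and -0.30 in WT. With the repeat entries alone as the library it was -0.18 in 5xFAD and -0.16 in WT. The ribosomal entries Rn45s and Rn18s moved with the IP, at 1.11% of counts against 0.221% in the input (5xFAD) and 1.60% against 0.161% (WT), as did satellite repeats, at 3.67% against 1.60% (5xFAD) and 3.44% against 2.69% (WT). With ribosomal and satellite entries left out of the library size the sum stayed below 0, at -0.12 in 5xFAD and -0.14 in WT. A scaling adds 1 constant to every entry of a library pair, so the order of members within a genotype does not depend on it, while any statement that a member is above or below the input does.

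The 3 families with most counts, hAT-Charlie, TcMar-Tigger and hAT-Tip100, held 89.5% of member counts in 185 entries and lay close together. hAT-Charlie alone, with 79 entries and 63.4% of member counts, stood at 15533 CPM in the 5xFAD IP against 17487 in the 5xFAD input, and at 15265 CPM in the WT IP against 17067 in the WT input. Its log2 ratio was -0.17 in 5xFAD and -0.16 in WT. TcMar-Tigger, the fossil relatives of the pogo transposon, with 55 entries, had 4232 and 4625 CPM in the 5xFAD IP and input and 4047 and 4538 CPM in the WT IP and input, log2 ratios of -0.13 and -0.17. hAT-Tip100, with 51 entries, had 2255 and 2554 CPM in the 5xFAD IP and input and 2207 and 2482 CPM in the WT IP and input, log2 ratios of -0.18 and -0.17. In all 3 families both IPs lay under their own inputs, by a similar amount.

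**Figure D1:**
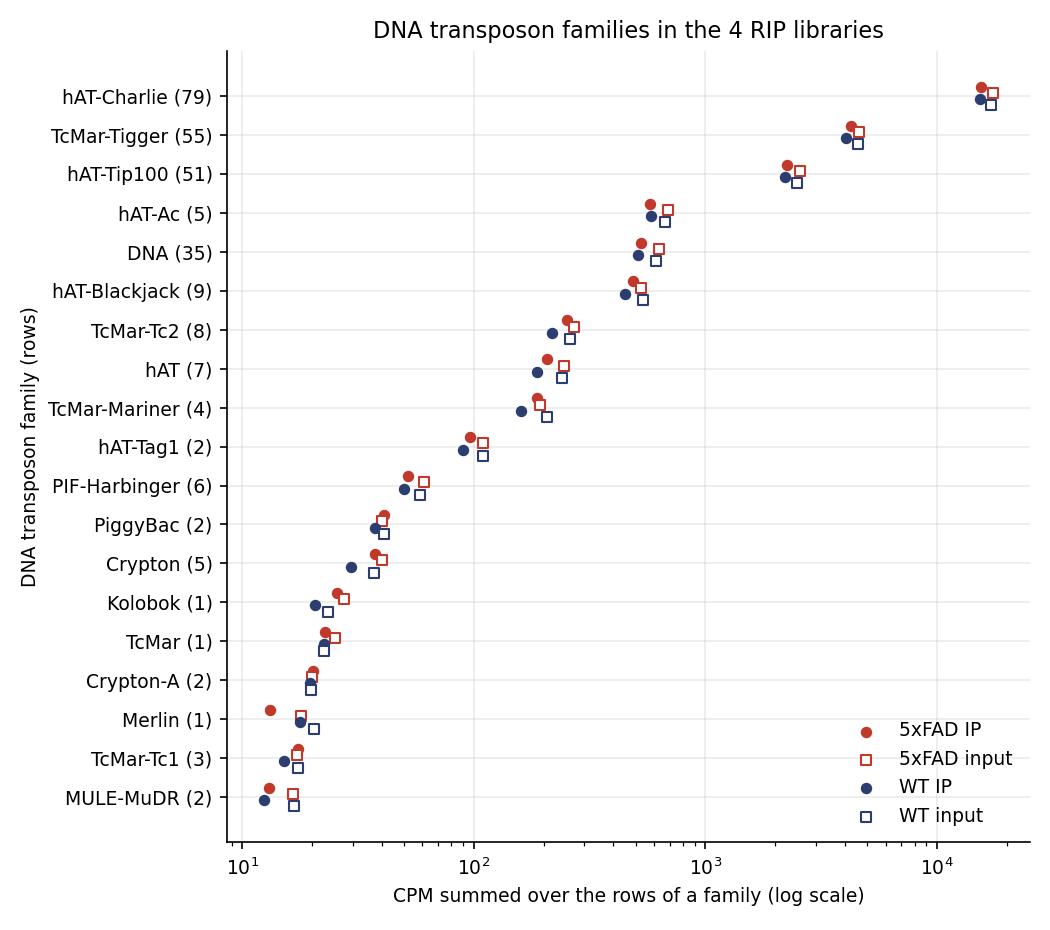
Summed CPM (log axis) of each DNA transposon family in the 4 RIP libraries, 1 point per library, with no error bar because each group has 1 library. hAT-Charlie lies at 15265 to 17487 CPM in every library and MULE-MuDR at 12.4 to 16.7 CPM, and within a family the 4 points nearly coincide.

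Across the 19 families the log2 ratio ran from -0.45 to 0.02 in 5xFAD and from -0.44 to 0.01 in WT. It was below 0 for 16 families in 5xFAD and 18 in WT, and the counting interval lay wholly below 0 for 11 and 13 of them, wholly above 0 for none. Under TMM 2 families lay below 0 in 5xFAD and 15 in WT, and under DESeq2 size factors 1 and 14. The smaller hAT families had ratios of -0.26 in 5xFAD and -0.20 in WT (hAT-Ac), -0.13 and -0.25 (hAT-Blackjack), -0.24 and -0.36 (entries assigned only to hAT) and -0.18 and -0.28 (hAT-Tag1). TcMar-Tc2 stood at -0.10 in 5xFAD and -0.25 in WT. The 35 entries with no family beyond DNA summed to -0.26 in 5xFAD and -0.25 in WT, and PIF-Harbinger to -0.24 and -0.23.

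Some families lay apart from the class sum by more than counting error, a comparison within a library pair that no scaling changes. In 5xFAD hAT-Ac and the entries with no family beyond DNA lay wholly below it, and TcMar-Tigger and TcMar-Mariner wholly above. In WT hAT-Blackjack, the entries assigned only to hAT, those with no family beyond DNA, and TcMar-Mariner lay wholly below it, and no family above. The entries with no family beyond DNA were thus on the same side in both genotypes, and TcMar-Mariner on opposite sides. For hAT-Ac the place rests on OldhAT1, which held 3231 of its 3924 counts in the 5xFAD IP. Without OldhAT1 hAT-Ac stood at -0.03 in 5xFAD, above the class sum of -0.17. MER53, at -0.34 in WT, held 1068 of the 2585 counts of hAT-Blackjack in the WT IP.

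The most counted entry of a family is part of the family sum, so a likeness between them is partly built in. Arthur1 of hAT-Tip100 stood at -0.08 in 5xFAD and -0.16 in WT, MER53 of hAT-Blackjack at -0.14 and -0.34, and MER121 of hAT at -0.26 and -0.44. Kanga2_a of TcMar-Tc2 stood at -0.04 in 5xFAD and -0.36 in WT, hAT-1_Mam of hAT-Tag1 at -0.18 and -0.31, MER131 of the DNA entries at -0.36 in both, and AmnHarb1 of PIF-Harbinger at -0.06 and -0.26. Leaving out the most counted entry turned the 5xFAD minus WT difference for hAT-Ac, from which OldhAT1 was removed, to 0.18, where it was -0.05 with it. It did so too for PiggyBac without Looper, at -0.43 where it was 0.14, and for Crypton-A without Eulor5A, at -0.37 where it was 0.01.

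The 8 least counted families hold few counts, and their intervals are wide. PiggyBac, a family still mobile in insects, had 40.8 and 40.1 CPM in the 5xFAD IP and input and 37.6 and 40.7 CPM in the WT IP and input. Its log2 ratio was 0.02 (-0.20 to 0.25) in 5xFAD and -0.12 (-0.36 to 0.13) in WT. Merlin, with 1 entry, had 13.2 and 18.0 CPM in the 5xFAD IP and input, against 17.8 and 20.4 CPM in the WT IP and input, and gave the lowest family ratio in 5xFAD (-0.45, -0.83 to -0.07). MULE-MuDR gave the lowest in WT (-0.44, -0.86 to -0.02, from 2 entries). Crypton stood at -0.10 in 5xFAD and -0.34 in WT, Kolobok at -0.11 and -0.20, and Crypton-A at 0.01 and -0.00. TcMar-Tc1 stood at 0.01 in 5xFAD and -0.20 in WT, and Eulor8, an entry assigned only to TcMar, at -0.14 and 0.01. The counting interval of each of these 8 families held the class sum in 5xFAD and in WT.

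**Figure D2:**
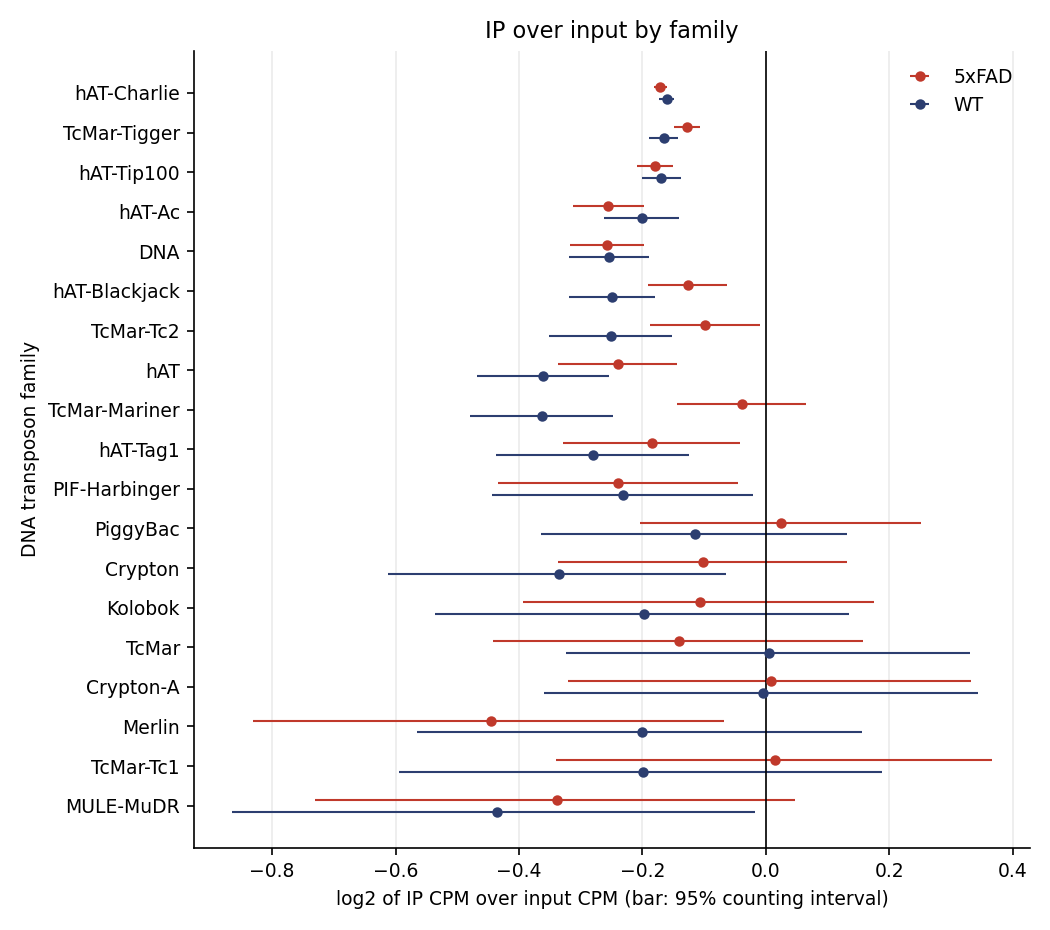
Log2 IP over input of each DNA transposon family in 5xFAD and WT, with 95% counting intervals, families ordered by counts. The 3 most counted families lie between -0.18 and -0.13 in both genotypes, and TcMar-Mariner shows the clearest separation of the genotypes (-0.04 in 5xFAD, -0.36 in WT).

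Single entries behaved like the families. Of 278 members 242 were lower in the IP than in the input in 5xFAD, where 83.1% of all 9990 table entries with at least 100 counts were lower, and 249 in WT, where 68.5% were. With TMM 62 members were lower in 5xFAD (22.3%, against 53.5% of all entries) and 182 in WT (65.5% against 49.1%). With DESeq2 size factors 48 were lower in 5xFAD (17.3% against 49.3%) and 177 in WT (63.7% against 48.7%). With gene entries as the library 137 were lower in 5xFAD (49.3% against 66.9%) and 269 in WT (96.8% against 80.7%). With repeat entries as the library the shares were 88.8% against 84.3% in 5xFAD and 88.8% against 67.3% in WT. Without ribosomal and satellite entries they were 81.3% against 79.2% and 85.6% against 64.4%. Both genotypes showed the lower IP for 219 members, against 58.7% of all entries. No member was at least 2-fold higher in an IP, where 0.23% of all entries were in 5xFAD and 0.41% in WT. At least 2-fold lower were 1 member in 5xFAD (background 6.71%) and 1 in WT (1.85%), and at least 1.5-fold lower were 7 in 5xFAD (27.8%) and 16 in WT (12.3%). The counting interval lay wholly below 0 for 82 members in 5xFAD (background 25%) and 107 in WT (10.1%), and wholly above 0 for 1 member in 5xFAD (1.66%) and none in WT (2.61%). Intervals narrow with counts, so this background of mostly gene entries is not like for like. Wholly below 0 were 29.5% of members in 5xFAD and 38.5% in WT. Over all repeat entries with the minimum, members among them, 32.0% and 31.9% were wholly below 0, and 9.94% and 13.1% wholly above. In WT the members were thus lower more often than the table as a whole under each of these scalings. In 5xFAD their excess was small on the CPM scale (87.1% against 83.1%), with repeat entries and without ribosomal and satellite entries. Under TMM, DESeq2 size factors and gene entries it turned into a shortfall. Large folds were rarer among members, which have a median of 821 counts, against 159 over all 9990.

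The entries with most counts are rodent-named or old mammalian elements, 10 of 12 of them from the hAT superfamily. The 12 most counted held 52.3% of member counts, and URR1A and URR1B, short rodent relatives of Charlie elements, 20.4%. URR1A had 19150 and 29734 counts in the 5xFAD IP and input (2813 and 3148 CPM) and 16308 and 27247 in the WT IP and input (2840 and 3057 CPM), log2 ratios of -0.16 and -0.11. URR1B stood at -0.21 in 5xFAD and -0.12 in WT. Both IPs of each lay under their inputs by more than counting error. Without these 2 entries the members summed to -0.16 in 5xFAD and -0.19 in WT.

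MER5A, a short non-autonomous Charlie derivative, had 8061 and 13625 counts in the 5xFAD IP and input and 7017 and 12293 in the WT IP and input, log2 ratios of -0.29 and -0.17. Its relative MER5B had ratios of -0.28 in 5xFAD and -0.15 in WT, MER20 of -0.22 and -0.11, and MER58A of -0.21 and -0.09. MER2, a short Tigger derivative, had 8856 and 13586 counts in the 5xFAD IP and input and 7288 and 12587 in the WT IP and input, with -0.15 in both genotypes. MER5A1 had -0.22 in 5xFAD and -0.16 in WT, and Tigger5b_Glire -0.10 and -0.14. OldhAT1 gave the lowest ratio of the 12 in 5xFAD (-0.30, against -0.20 in WT). RCHARR1 and Charlie1a were the exceptions, at 0.01 and 0.02 in 5xFAD and at -0.19 and -0.21 in WT. Of the 12, 10 lay wholly below 0 in 5xFAD and 12 in WT.

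Entries at the extremes mostly had few counts, with Tigger17d as an exception. UCON23, the member past 2-fold in 5xFAD, had 14 and 42 counts in the 5xFAD IP and input and 16 and 31 in the WT IP and input, with a 5xFAD log2 ratio of -1.08 (-2.10 to -0.21). Eulor6A, the member past 2-fold in WT, had 26 and 33 counts in the 5xFAD IP and input and 10 and 33 in the WT IP and input, with a WT ratio of -1.04 (-2.27 to -0.03). Both had barely passed the count minimum: Eulor6A held 102 counts in all and UCON23 103, with MER133B next at 106, while MER136 at 99, Tigger1a_Art at 97 and UCON69 at 95 fell short. The lowest 5xFAD ratios after UCON23 were those of UCON80 (-0.84), UCON58 (-0.77), UCON59 (-0.73), UCON33 and MARE8 (-0.70 each), and the lowest WT ratios after Eulor6A those of MamRep488 and X23_DNA (-0.84 each) and MER121B (-0.81). The highest WT ratios were those of MER63B of hAT-Blackjack (0.57) and X32_DNA (0.44). UCON and Eulor entries are ancient elements, many found through their conservation between vertebrates. The member wholly above 0 was Tigger17d, with 1200 counts in all. It had 298 and 346 counts in the 5xFAD IP and input and 203 and 353 in the WT IP and input, ratios of 0.26 (0.03 to 0.48) in 5xFAD and -0.16 (-0.42 to 0.09) in WT. Its IP was the higher library in 5xFAD and the lower in WT.

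**Figure D3:**
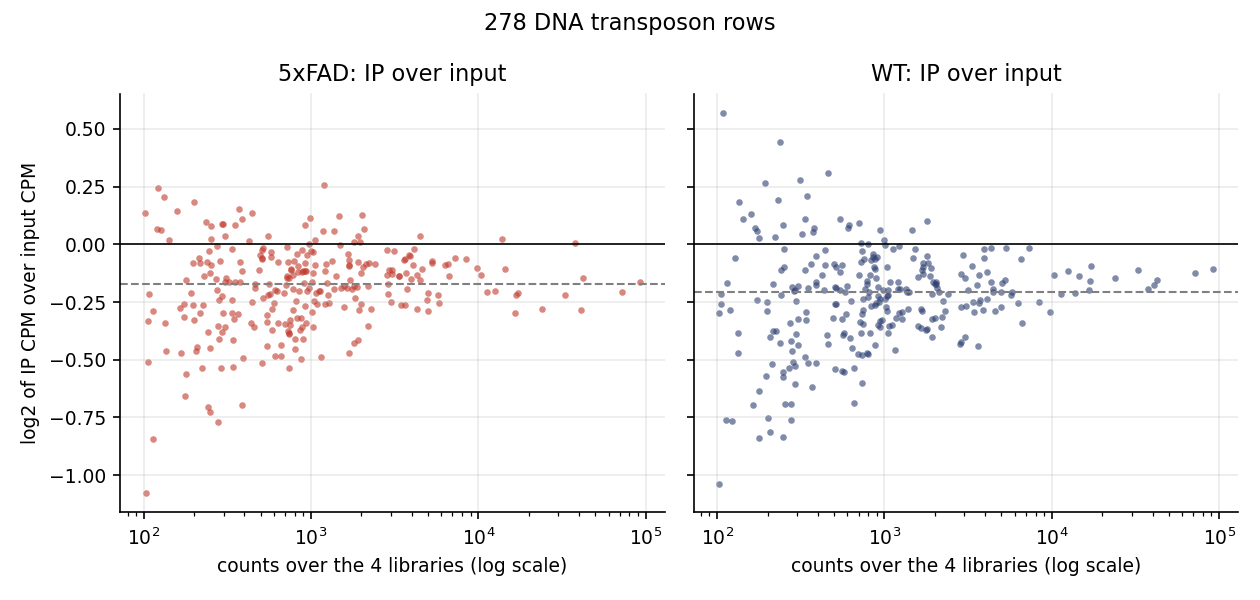
Log2 IP over input of each of the 278 members against its counts summed over the 4 libraries (log axis), for 5xFAD and WT. Members with 100 to 200 counts spread from -1.08 to 0.25 (5xFAD) and from -1.04 to 0.57 (WT), and points draw together towards the class sum of -0.17 as counts rise.

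The spread between members followed their counts. Among the 26 members with 100 to 200 counts the SD of the log2 ratio was 0.331 in 5xFAD and 0.387 in WT, and counting error alone gives 0.345 and 0.385. Among the 26 members with 5000 counts or more it was 0.0876 in 5xFAD and 0.0766 in WT, against 0.0397 and 0.0430 from counting. At low counts the spread was therefore that of counting, and the most counted members varied by more than counting. The interval of 30 members in 5xFAD (10.8%) and 27 in WT (9.71%) excluded the class sum of its genotype. Across the 278 members, which share the 4 libraries and are not independent, Pearson's r between the 5xFAD and WT ratios was 0.12, and 0.22 over the 115 members with at least 1000 counts.

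Between genotypes the members did not move as a block on the CPM scale. The 5xFAD minus WT difference lay above 0 for 164 of 278 members, against 3486 of all 9990 entries. The counting interval of the 5xFAD minus WT difference of log2 ratios excluded 0 for 32 members (11.5%), where it did for 12.7% of all entries. It lay above 0 for 22 members, against 2.84% of all entries, and below 0 for 10, against 9.84%. A scaling adds 1 constant to the difference of every entry, so these counts change with it. With TMM the interval lay above 0 for 63 members and below 0 for none, with gene entries as the library for 124 and none, and with repeat entries for 18 and 12. The difference itself lay above 0 for 226 members with TMM and 253 with gene entries. Shares over all entries were not worked out for these scalings, so these counts are no result about the members. Among families it excluded 0 for TcMar-Mariner (0.32, 0.17 to 0.48), TcMar-Tc2 (0.15, 0.02 to 0.29), hAT-Blackjack (0.12, 0.03 to 0.22) and TcMar-Tigger (0.04, 0.00 to 0.07). All 4 lay above 0. Under the other scalings the class difference ranged from -0.02 (repeat entries) to 0.31 (gene entries), and the families past counting error changed with it. With repeat entries as the library they were TcMar-Mariner and hAT-Blackjack above 0 and hAT-Charlie below, with TMM 11 families and with gene entries 14, all above 0. TcMar-Mariner stayed above 0 under each of them, at 0.30 to 0.63, and so did hAT-Blackjack, at 0.09 to 0.42. With repeat entries the hAT-Blackjack interval only just excluded 0 (0.0009 to 0.19).

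TcMar-Mariner holds 4 entries related to the mariner transposons of insects. The family stood at 188 and 193 CPM in the 5xFAD IP and input and at 160 and 206 CPM in the WT IP and input, so that the 5xFAD IP was close to its input and the WT IP lay below its own. MARNA, its most counted entry, had 620 and 876 counts in the 5xFAD IP and input and 431 and 902 in the WT IP and input, log2 ratios of -0.03 and -0.43 (difference 0.40, 0.18 to 0.63). MMAR1, the mouse mariner, had 472 and 626 counts in the 5xFAD IP and input and 351 and 622 in the WT IP and input, ratios of 0.06 and -0.19. MADE2 and UCON40 also had differences above 0 (0.20 and 0.33), with intervals that included 0. Without MARNA the family difference was 0.25.

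**Figure D4:**
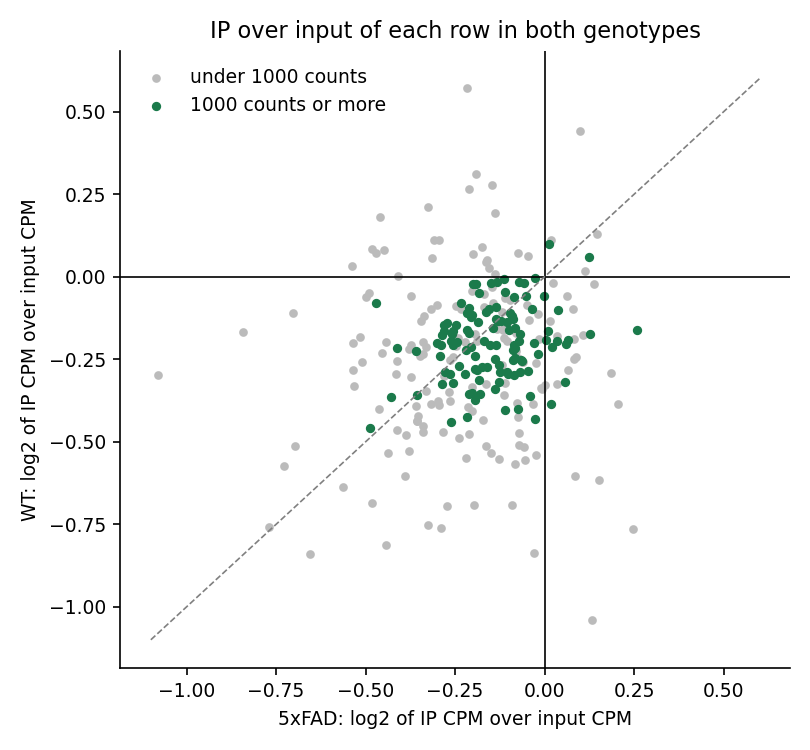
Log2 IP over input of each member in 5xFAD (x axis) against WT (y axis), members with at least 1000 counts in green, the rest in grey, and equal ratios along the dashed line. The cloud is centred near the class sum of -0.17 in both genotypes with little slope (Pearson's r 0.12 over 278 members).

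Entries of hAT-Charlie went in both directions on the CPM scale. RCHARR1, a rodent Charlie element, had 8467 and 11703 counts in the 5xFAD IP and input (1244 and 1239 CPM) and 6282 and 11141 in the WT IP and input (1094 and 1250 CPM). Its difference was 0.20 (0.14 to 0.26). Charlie1a had 3166 and 4326 counts in the 5xFAD IP and input and 2269 and 4080 in the WT IP and input, a difference of 0.23 (0.13 to 0.33). For both entries the WT IP was the low library, and the other 3 were close in CPM. URR1A (-0.06), URR1B (-0.08), MER5A (-0.11), MER5B (-0.14), MER20 (-0.11) and MER58A (-0.12) had differences below 0 with intervals that excluded it. Under TMM, DESeq2 size factors and gene-entry scaling these 6 differences lay above 0 (MER5B at 0.0091, 0.04 and 0.17), so that only their gap to RCHARR1 and Charlie1a holds under every scaling. For MER5A the lowest CPM was in the 5xFAD IP (1184, against 1443 in the 5xFAD input, 1222 in the WT IP and 1379 in the WT input).

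Grouped by the stem of their names, the 44 Charlie entries summed to -0.11 in 5xFAD and -0.22 in WT, a difference of 0.11 (0.07 to 0.15), with 31 entries above 0. The 30 Tigger entries summed to -0.10 in 5xFAD and -0.17 in WT, a difference of 0.07 (0.02 to 0.12), with 22 above 0. The 68 MER entries, a stem (for medium reiterated repeat) that covers many short derivatives, summed to -0.21 in 5xFAD and -0.17 in WT, a difference of -0.03 (-0.06 to -0.01), with 37 above 0 and 31 below. Of all 278 members 164 had a difference above 0, and of all 9990 entries 3486. These counts change with the scaling: under TMM 226 of the 278 members lay above 0. Of the 10 members whose difference interval lay below 0, 7 were MER entries, and of the 22 above 0, 5 were MER, 5 Charlie and 3 Tigger entries. The 8 entries named for rodents or Glires had a difference of -0.01 (-0.03 to 0.02), with URR1A and URR1B below 0 and RCHARR1 above. The name groups were drawn up after the values had been seen, and the gaps between them do not depend on the scaling. The sign of the MER difference does: it was 0.11 under TMM, 0.15 under DESeq2 size factors and 0.27 with gene entries as the library.

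For the class the inputs were alike: the log2 of 5xFAD over WT CPM was 0.03 for the inputs and 0.04 for the IPs. RCHARR1 (-0.01) and Charlie1a (0.00) also had like inputs, but not every entry did. For TcMar-Mariner it was -0.098 (-0.19 to -0.0036) for the inputs and 0.23 for the IPs, and for MARNA -0.13 and 0.28. It was -0.23 and 0.54 for MER94B and -0.42 and 0.59 for X33a_DNA. Satellite repeats stood at -0.74 and 0.09. Such differences thus rest on inputs and IPs both. Depth also differed between the pairs, the WT IP being the shallowest library. The part of depth and of the ribosomal and satellite shares in the single differences was not tested.

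Set beside LINE, LTR and SINE in the same libraries, DNA transposons had the lowest summed ratio in both genotypes, an order that no scaling changes. Summed log2 ratios were 0.10 in 5xFAD and -0.02 in WT for LINE, -0.07 and 0.01 for LTR and -0.15 and -0.05 for SINE, against -0.17 and -0.17 for DNA. The counting intervals of these sums do not overlap between DNA and any of the other 3 in either genotype. The median member stood at -0.17 in 5xFAD and -0.21 in WT, against medians of -0.03 and -0.18 over 190 LINE, -0.07 and -0.02 over 613 LTR and -0.25 and -0.15 over 34 SINE entries. Over 8823 gene entries it was -0.39 in 5xFAD and -0.17 in WT. The median of members minus that of all entries was 0.17 in 5xFAD and -0.05 in WT, and with a minimum of 400 counts -0.06 and -0.13, so its sign in 5xFAD depends on the minimum. The difference interval excluded 0 for 11.5% of members, 52.6% of LINE, 32.3% of LTR and 85.3% of SINE entries, classes with many more counts per entry.

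**Figure D5:**
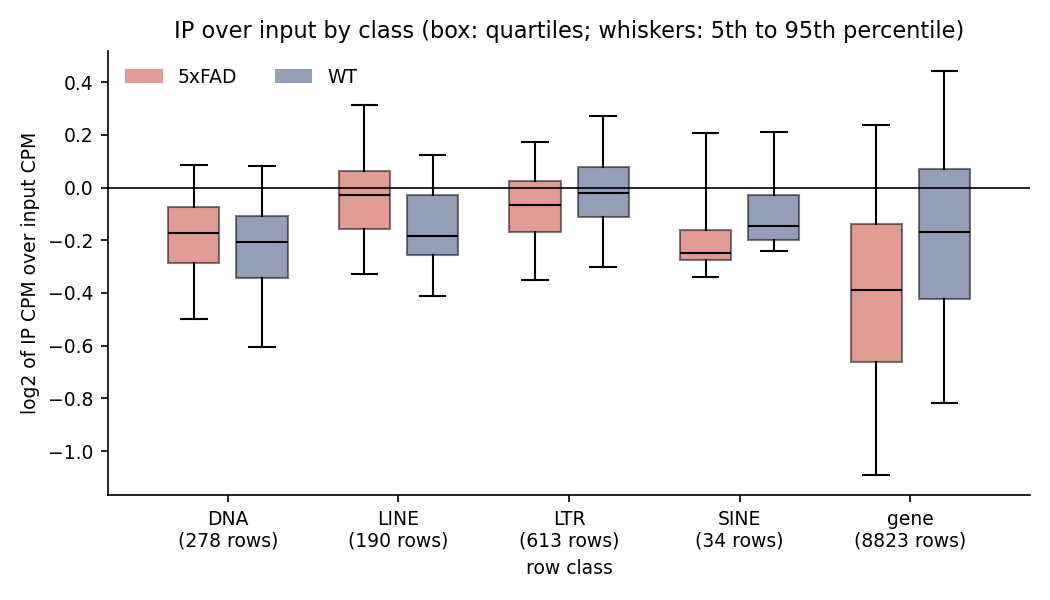
Log2 IP over input per entry for DNA, LINE, LTR, SINE and gene entries with at least 100 counts, in 5xFAD and WT, as medians with quartiles and the 5th to 95th percentiles. DNA transposons have medians of -0.17 in 5xFAD and -0.21 in WT, where LTR has -0.07 and -0.02 and gene entries have -0.39 and -0.17.

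Host genes that descend from DNA transposons were, as a list, not higher in the IP. The list holds 27 genes, among them the recombination-activating Rag1 and Rag2, the piggyBac-derived Pgbd1 and Pgbd5, the pogo-derived Pogk and Tigd genes and the THAP-domain genes, and 8 of them reached 100 counts. They summed to 412 and 784 counts in the 5xFAD IP and input and to 387 and 705 in the WT IP and input, log2 ratios of -0.46 and -0.23. Ratios were below 0 for 21 of 27 genes in 5xFAD (77.8%) and 19 in WT (70.4%), close to the 84.6% and 68.4% of all gene entries with at least 100 counts. At least 2-fold lower were 7 genes in 5xFAD and 2 in WT, where 7.58% and 2.09% of gene entries with at least 100 counts were. None was at least 2-fold higher in either, where 0.249% and 0.465% of those entries were. These shares are not like for like, because 19 genes of the list lie under the count minimum. Naif1, a nuclear protein with a Harbinger-derived domain, was low in both IPs, with 7 and 38 counts in the 5xFAD IP and input and 6 and 33 in the WT IP and input, ratios of -1.89 and -1.73. The nuclear RNA Malat1 had 454 and 109 counts in the 5xFAD IP and input and 399 and 60 in the WT IP and input (log2 ratios 2.53 and 3.36), and Zbp1 itself had 50 and 25, and 53 and 26 (1.46 and 1.65), so that single genes in the same libraries were several-fold higher in the IP while no member was. The liver gene Alb, with a hippocampal mean of 0.116 CPM, was also among them, with log2 ratios of 2.42 in 5xFAD and 2.69 in WT.

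The authors' deposited table of comparisons called none of the 278 members in IP against input in 5xFAD, in IP against input in WT, or between the 2 IPs, where it called 23, 24 and 2 of all 25227 entries. In the authors' deposited table the members' log2 fold change of IP over input had a median of 0.22 in 5xFAD (243 above 0) and -0.02 in WT (114 above 0), against medians of 0.04 and 0.03 over all entries with at least 100 counts. For the WT IP over the 5xFAD IP the members' median was -0.21 (249 below 0), against -0.02 over those entries. Shares of all entries above or below 0 were not worked out here, so these counts are no result about the members. The authors' deposited values lay above those on the CPM scale by a median of 0.39 in 5xFAD and 0.19 in WT, an offset shared by the members.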

How the data were processed

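For the RIP libraries the authors deposited 1 table of counts, whole numbers of reads per gene symbol or repeat entry, with 1 column per library, per the file headers. A table of comparisons deposited by the authors gives log2 fold changes with p-values and a call for each entry; its log2 fold changes and calls were used and its p-values were not. The submitters' processing notes name HISAT2, DESeq2 1.42.1 and edgeR 4.0.16, and builds of both mm10 and mm39. The counter, the repeat annotation and the treatment of reads that match many copies are not stated in any label or header, so near-identical entries (URR1A and URR1B, MER5A and MER5A1) may share reads. Where the labels give the molecule as polyA RNA, the extraction text speaks of total or IP RNA.

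From there, CPM used all entries of the table as the library. Log2 ratios of single entries have a pseudocount of 0.5 counts, those of families sum the counts of their entries. Intervals are exact conditional binomial (Clopper-Pearson) intervals of the count ratio at 95%; for the difference between genotypes the counting variances were added. Reads without molecular identifiers are not independent molecules. Python 3.11.15 with scipy 1.17.1, and R 4.3.3 with edgeR 4.0.16 (TMM) and DESeq2 1.42.0 (size factors), were used for scaling only, with no test, because each group has 1 library. The ratio code was tested on simulated data. Hippocampal mRNA counts served only for the marker check.

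The members, gene lists and settings were chosen with earlier results of these data known. Every family is described. Entries were named from the 12 most counted, the 6 highest and 6 lowest ratios of each genotype, the 5 highest and 5 lowest differences, the most counted of each family and the 3 neighbours on each side of the count minimum; not each of these is printed. MMAR1, MADE2 and UCON40 were added, and the name groups made, after values were seen.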

Additional observations from a re-analysis of the deposited data

Results flagged for a closer look

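In 4 families the IP lay on opposite sides of its input in the 2 genotypes, and these differences were not tested. The 5xFAD minus WT difference was 0.14 for PiggyBac, -0.15 for TcMar (1 entry, Eulor8), 0.0131 for Crypton-A and 0.21 for TcMar-Tc1, and each counting interval included 0. Without its most counted entry PiggyBac stood at -0.43, Crypton-A at -0.37 and TcMar-Tc1 at 0.69.

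Opposite signs also occurred for named entries, again untested. Above the input in 5xFAD and below it in WT were Charlie1a (0.23), RCHARR1 (0.20), Tigger17d (0.42) and MER94B (0.77), whose difference intervals excluded 0. The same direction, with intervals that included 0, was seen for Eulor2A (0.48), Eulor5A (0.16), Eulor6A (1.17), Eulor6D (0.21), Looper (0.33), MamRep1894 (0.59), X2b_DNA (0.69) and X33a_DNA (1.01). Below the input in 5xFAD and above it in WT were EUTREP4 (-0.42), Eulor8 (-0.15), MER63B of hAT-Blackjack (-0.79), UCON62 (-0.64), X10b_DNA (-0.48), Zaphod4a (-0.50) and hAT-N1_Mam (-0.54), with intervals that included 0.

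Outside the members, the table has entries whose class is written with a question mark. Of these MER124 had 6 counts in the 5xFAD IP and 0 in the 5xFAD input, against 0 in the WT IP and 1 in the WT input.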

How the results depend on the processing

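No paired analysis was possible because each RIP group has 1 library, and no library could be left out. Where a value changed, the cause was not tested unless the setting itself gives it. The class sum (main -0.17 in each genotype, difference 0.01) was 0.0076 in 5xFAD and -0.30 in WT (difference 0.31) with gene entries as the library, -0.18 and -0.16 (-0.0216) with repeat entries, 0.14 and -0.0099 (0.15) under TMM, 0.18 and -0.0057 (0.19) under DESeq2 size factors, and -0.12 and -0.14 without ribosomal and satellite entries, a setting chosen after seeing the data. As the median over entries it was -0.21 in WT and the difference 0.0375. The median of members minus that of all entries (0.17 in 5xFAD, -0.05 in WT) was 0.18 and -0.064 with no minimum, -0.0598 and -0.13 with a minimum of 400, and 0.11 and -0.11 with a pseudocount of 5.

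Members at least 2-fold lower (1 in each genotype) numbered 0 in 5xFAD with gene entries as the library, 0 in both genotypes under TMM, under DESeq2 size factors, with a minimum of 400 and with a pseudocount of 5, and 2 in 5xFAD and 5 in WT with no minimum, where 3 were 2-fold higher in 5xFAD. At 1.5-fold the lower members numbered 7 in 5xFAD and 16 in WT. The 3 entries 2-fold higher in 5xFAD with no minimum had few counts in the IP and input. They were MER136 (5 against 1) and Eutr2 (6 against 4), both with no family beyond DNA, and Tigger1a_Mars (5 against 3). Except for the main setting and 1.5-fold, shares over all entries were not worked out, so those counts are no result about the members. Depth limits single entries: below 200 counts, counting error alone spreads the log2 ratio by 0.345 in 5xFAD and 0.385 in WT.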

Other observations

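The 3 gene lists that were set beside the members had these values. The list of 10 nuclear and long noncoding RNAs summed to log2 ratios of 0.58 in 5xFAD and 0.73 in WT, with 6 and 5 of its genes below 0. Malat1 carries these sums: the other 9 genes summed to 0.04 (-0.10 to 0.18) in 5xFAD and 0.15 (0.00 to 0.29) in WT. The list of 12 abundant cytoplasmic messenger RNAs summed to 0.44 in 5xFAD and 0.56 in WT, with 6 and 8 genes below 0. Its median gene lay below 0, at -0.20 in 5xFAD and -0.09 in WT, so these sums do not describe the list as a whole. Actb, Apoe and Eef1a1 had the highest ratios of the list in both genotypes, with counting intervals wholly above 0. A sum without these genes was not worked out. For the ZBP1 pathway and double-stranded RNA handling the list also held the transgene-related Thy1 and App, and Thy1 gave most of its 5xFAD counts. Its other 8 genes summed to -0.23 (-0.47 to 0.01) in 5xFAD and 0.20 (-0.03 to 0.44) in WT.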
